A study of Papio anubis with 588 samples.

Results

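Changes that were shared between tissues were examined in 78 of 99 captive olive baboons (Papio anubis), those with liver, muscle and adipose biopsies at both visits after the authors' quality control. RNA libraries from biopsies at 0 years, on a low cholesterol, low fat diet (LCLF), were set beside those taken after 2 years on a high cholesterol, high fat diet (HCHF), and every animal made the switch. These animals gave 468 of the 570 libraries that were kept. Animals without the switch were not analysed here and ages are not given in the labels. Diet, age, calendar time and anything else that differed between an animal's visits therefore cannot be told apart. For each of 7797 of 34178 genes, those with a mean of at least 5 CPM (counts scaled to the library total) in each tissue, the change of log2 CPM from 0 to 2 years was taken in every animal and tissue. The changes in one tissue were then ranked against those in another across the 78 animals with Spearman's rho. A gene is said to have agreed in a tissue pair where rho was above 0 with a Benjamini-Hochberg adjusted p under 0.05 over all 23391 tests, and to have opposed where rho was below 0 with the same limit. Agreement says that the animals with higher changes in one tissue also had higher changes in the other, and it holds no information on the mean change.

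The 10 genes that agreed in all 3 tissue pairs were CCDC117, PER3, MT2A, PER1, CPT1A, DDIT4, NR1D2, DNAJA1, CDK5RAP3 and ZBTB5. Several belong to systems that act throughout the body. In the circadian clock, ARNTL pairs with CLOCK or NPAS2 and switches on the PER and CRY genes, whose proteins repress the pair, while the nuclear receptors NR1D1 and NR1D2 repress ARNTL. Glucocorticoids and fasting signals reach tissues through the blood, and PER1, DDIT4, FKBP5 and the metallothioneins are known glucocorticoid targets. Heat shock chaperones such as DNAJA1 fold proteins in every cell. In liver and adipose, SREBF1 drives the genes of fatty acid synthesis, and it responds to insulin and feeding.

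The libraries held 6506614 to 38456575 counts, with a median of 19580166. Per the labels' protocols the animals were prepared in 2 batches with different kits, each animal wholly within 1 batch, but the labels do not say which animals were in which. They were therefore split at the largest gap on the first axis of the data, which placed 13 of the 78 animals in batch 1 (median 10870996 counts) and 65 in batch 2 (median 20188572 counts). Hepatocyte markers took 4.43 to 25.8% of liver counts, myocyte markers 12.4 to 29.4% of muscle counts and adipocyte markers 0.0548 to 2.71% of adipose counts (median 1.25%). In 10 animals at least 1 library carried few markers of its own tissue or at least 0.5% of counts on hepatocyte or myocyte markers outside that tissue, up to 2.92% hepatocyte markers in a muscle library. Values below are from all 78 animals unless stated. Among the other 68 animals 9 of the 10 genes agreed in all 3 pairs, CDK5RAP3 being lost between liver and adipose (rho 0.363, adjusted p = 0.0763), and the 30 rho values of the 10 genes ran from 0.363 to 0.638. Among these 68 the core clock list held 5, 3 and 5 genes that agreed, the heat shock list 2, 8 and 5 and the lipogenesis list 1, 6 and 1, in the order liver and muscle, liver and adipose, and muscle and adipose. Of all 7797 genes 152, 127 and 120 agreed in these 68 animals. Animal 18395 had the highest rho across genes between the changes of its own tissues, 0.662, 0.513 and 0.450 for liver and muscle, liver and adipose, and muscle and adipose, where the medians over animals were 0.0567, 0.112 and 0.0843. Animal 12152, one of the 10 in doubt, had the highest MT2A, DDIT4 and CDK5RAP3 changes and the lowest DNAJA1 changes averaged over tissues. Without 18395 the count for liver and muscle fell to 106. Without both animals it fell to 85, and 6 of the 10 genes still agreed in all 3 pairs.

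Most genes leaned towards agreement, and few agreed past the threshold. Between liver and muscle 171 genes agreed (2.19% of genes tested), between liver and adipose 116 (1.49%) and between muscle and adipose 113 (1.45%). The median rho over all genes was 0.133, 0.0942 and 0.102 in the same order, and 84.4%, 76.2% and 77.97% of genes had a rho above 0. Opposed genes numbered 0 of 7797 between liver and muscle (0%), 3 between liver and adipose (0.0385%) and 2 between muscle and adipose (0.0257%). At an unadjusted p under 0.05, 28, 71 and 68 genes lay below 0 and 1808, 1194 and 1254 above it, and with Pearson's correlation in place of Spearman's 5, 41 and 7 genes opposed. Of the 358 genes that agreed in at least 1 pair, 326 did so in 1 pair, 22 in 2 pairs and 10 in 3 pairs (0.128% of genes tested). In biopsies that hold many cells, fewer cells of a type and less RNA per cell cannot be told apart.

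**Figure D1:**
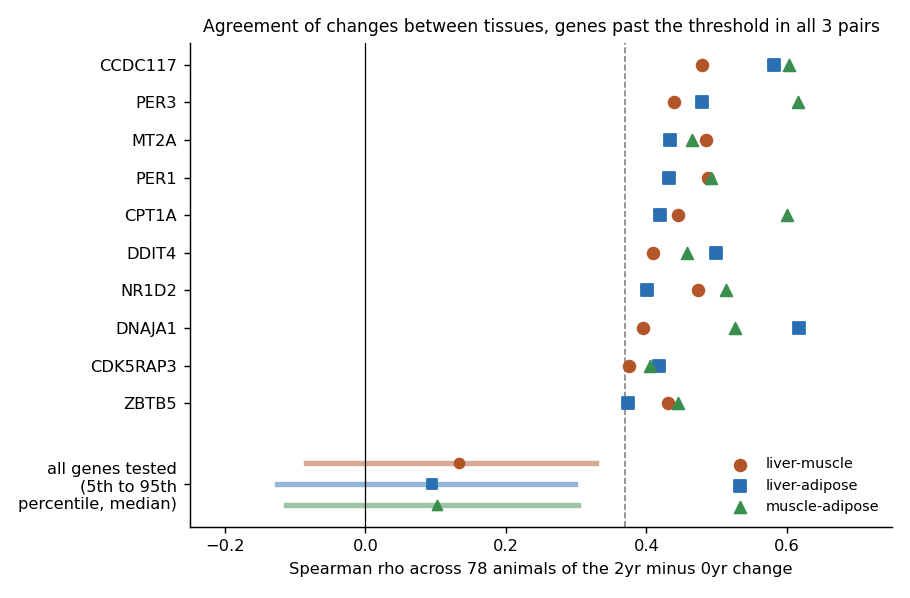
Spearman's rho of the change from 0 to 2 years between tissues across 78 animals, for the 10 genes that agreed in all 3 tissue pairs. Each gene has 1 point per tissue pair. The solid line is at 0 and the dashed line at the smallest rho that passed, 0.370. A separate row marks the median over all 7797 genes in each pair, on a bar of their spread. The points run from 0.374 to 0.617, above the medians of 0.133, 0.0942 and 0.102.

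The 3 clock repressors among the 10 genes moved up in some animals and down in others, and the animals' ranks were correlated between tissues. PER3 changed by -1.499 to 1.78 in liver (median -0.16), by -1.61 to 1.82 in muscle (median -0.04) and by -1.80 to 1.46 in adipose (median -0.14), all on the log2 CPM scale. PER3 rho was 0.440 between liver and muscle (adjusted p = 0.0120), 0.479 between liver and adipose (adjusted p = 0.00389) and 0.615 between muscle and adipose (adjusted p = 1.18e-05). In 42 of 78 animals PER3 moved in the same direction in all 3 tissues. PER1, the repressor that also answers to glucocorticoids, ranged from -2.27 to 1.33 in liver (median -0.16), from -1.92 to 1.30 in muscle (median -0.10) and from -1.71 to 1.10 in adipose (median -0.33). Its rho was 0.487, 0.432 and 0.491 for liver and muscle, liver and adipose, and muscle and adipose, and 43 animals had 1 direction throughout. NR1D2, which encodes the receptor REV-ERB beta, ranged from -1.503 to 1.51 in liver, from -0.82 to 2.14 in muscle and from -1.36 to 1.36 in adipose, with rho of 0.473, 0.400 and 0.514. For each of these genes and tissues single animals moved more than 1 log2 unit either way, except for NR1D2 in muscle, where no animal fell as far. The diet was followed by lower PER1 in each tissue (log2 fold change -0.28 ± 0.067 SE in liver, -0.25 ± 0.078 in muscle and -0.29 ± 0.065 in adipose, edgeR quasi-likelihood adjusted p = 0.000263, 0.0245 and 0.000416). PER3 and NR1D2 fell in liver (-0.24 ± 0.063 SE, adjusted p = 0.00108, and -0.14 ± 0.059 SE, adjusted p = 0.0374), while PER3 in adipose had a log2 fold change of -0.14 ± 0.060 SE with an adjusted p of 0.0545. That test used TMM scaling, and by library totals NR1D2 in liver was higher in 38 animals and lower in 40.

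In the list of core clock genes, 12 were tested and 5, 3 and 6 of them agreed between liver and muscle, liver and adipose, and muscle and adipose. Their median rho was 0.327, 0.256 and 0.340. Over all genes 2.19%, 1.49% and 1.45% agreed in the same order, with a median rho of 0.133, 0.0942 and 0.102. Beyond the 3 genes above, ARNTL, the activator, agreed between liver and muscle (rho 0.506) and between muscle and adipose (rho 0.481), as did the repressor PER2 (rho 0.481 and 0.370). NR1D1, which encodes REV-ERB alpha, agreed between muscle and adipose alone (rho 0.541). NPAS2, the partner of ARNTL, had a rho of 0.368 between liver and muscle with an adjusted p of 0.0510. The cryptochromes CRY1 and CRY2 did not pass in a pair, with rho from -0.102 to 0.191. Of 8 clock output genes tested, 0, 2 and 3 agreed (4, 3 and 4 lay above 0 at an unadjusted p under 0.05). The transcription factor DBP had a rho of 0.427 between liver and adipose and 0.616 between muscle and adipose, its relative TEF 0.389 and 0.526. PDK4, a kinase that shuts off pyruvate dehydrogenase, had 0.540 between muscle and adipose. With cell type scores regressed out, 2, 1 and 5 core clock genes agreed, where 44, 76 and 55 of all 7797 genes did.

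**Figure D2:**
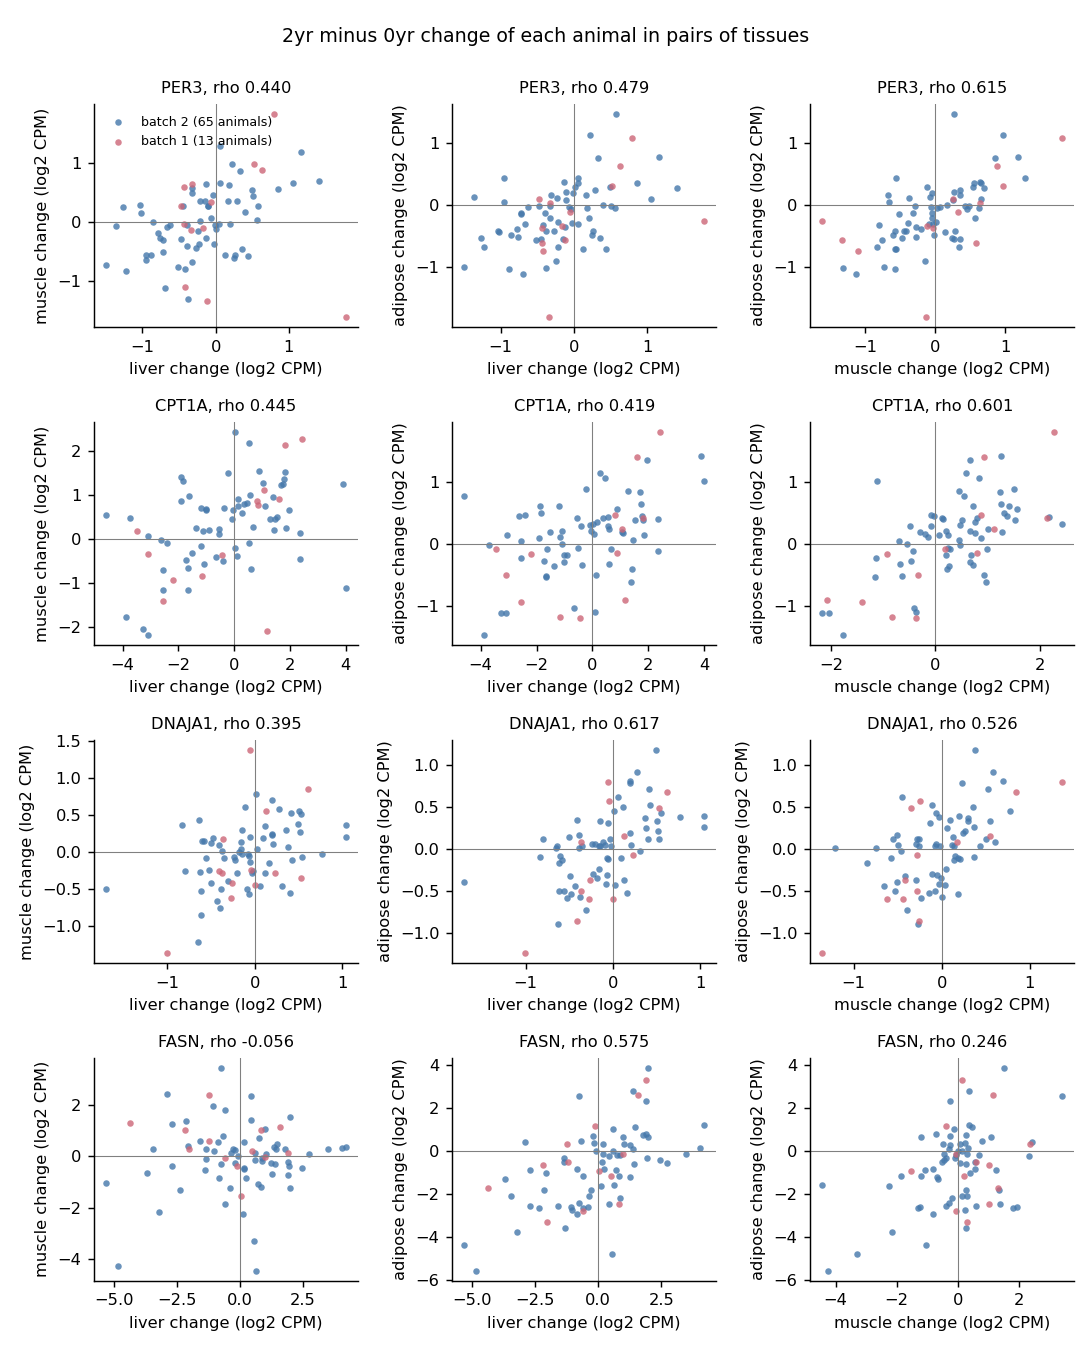
Change of log2 CPM from 0 to 2 years in one tissue against that in another for PER3, CPT1A, DNAJA1 and FASN (rows) in each tissue pair (columns). Each point is 1 of 78 animals, coloured by batch, and the rho is printed in each panel. FASN spreads along a line between liver and adipose (rho 0.575) and shows no such line between liver and muscle (rho -0.0559).

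CPT1A, which encodes the rate-limiting step of fatty acid entry into mitochondria, had among the widest changes of all genes tested. In liver it ran from -4.59 to 4.01 (median -0.07), in muscle from -2.17 to 2.44 (median 0.46) and in adipose from -1.47 to 1.81 (median 0.17). The SD of its liver change, 1.84, stood at the 99.7th percentile of the genes tested. Its rho was 0.445 between liver and muscle, 0.419 between liver and adipose and 0.601 between muscle and adipose (adjusted p = 0.0104, 0.0193 and 2.02e-05), and its mean change passed the diet test in no tissue. DDIT4, an inhibitor of the growth kinase complex mTORC1, changed by -4.42 to 3.38 in liver (median -0.47), by -2.04 to 3.07 in muscle (median -0.25) and by -1.32 to 1.70 in adipose (median -0.11). DDIT4 had rho of 0.409, 0.499 and 0.458, and fell in liver with the diet (log2 fold change -0.51 ± 0.172 SE, edgeR quasi-likelihood adjusted p = 0.0105). MT2A, a metallothionein that binds zinc, ranged from -3.64 to 5.07 in liver, from -2.64 to 6.83 in muscle and from -2.31 to 3.13 in adipose, with medians of -0.18, -0.12 and -0.15. The highest muscle and adipose values belonged to animal 12152. MT2A rho was 0.484, 0.434 and 0.465, and without the 10 animals in doubt 0.613, 0.523 and 0.440.

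Of 18 glucocorticoid response genes tested, 2, 5 and 2 agreed between liver and muscle, liver and adipose, and muscle and adipose, with a median rho of 0.114, 0.223 and 0.152. Over all genes 2.19%, 1.49% and 1.45% agreed. Their median rho was 0.133, 0.0942 and 0.102, the first above that of the list. Between liver and muscle the genes that agreed were MT2A and DDIT4, both described above. FKBP5, a co-chaperone of the glucocorticoid receptor, agreed between liver and adipose (rho 0.434), as did KLF9, a transcription factor (rho 0.397), and SGK1, a kinase (rho 0.381). FKBP5 had a rho of 0.103 between liver and muscle and 0.184 between muscle and adipose. The glucocorticoid targets TSC22D3 and ZBTB16 passed in no pair, with rho from -0.0362 to 0.329, and the phosphatase DUSP1 lay between -0.0603 and 0.0369. Of 18 genes of the fasting and PPAR response, 2, 1 and 3 agreed. ACAA2, an enzyme of beta-oxidation, did so between liver and muscle (rho 0.390), and FOXO3, a transcription factor held inactive by insulin, between muscle and adipose (rho 0.452). The median rho of that list between liver and adipose was 0.00434, below the 0.0942 of all genes.

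**Figure D3:**
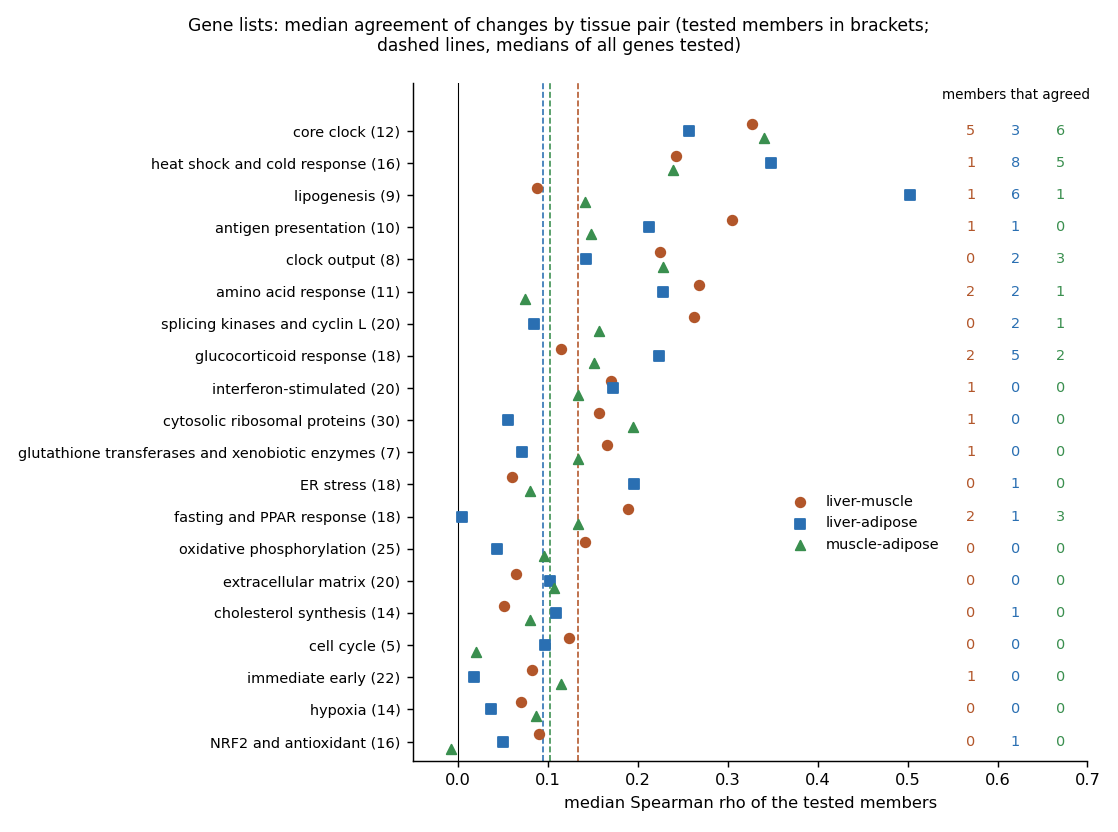
Number of tested members of each gene list whose changes agreed in a tissue pair, and the median rho of the list. Core clock, heat shock and lipogenesis have the highest counts of members that agreed in a single pair. Lipogenesis stands at 6 of 9 between liver and adipose and 1 of 9 in each of the other pairs. Over all genes 2.19%, 1.49% and 1.45% agreed between liver and muscle, liver and adipose, and muscle and adipose.

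Fatty acid synthesis genes agreed between liver and adipose. Of 9 members tested 6 agreed there, 1 agreed between liver and muscle and 1 between muscle and adipose, and the median rho was 0.503, 0.0877 and 0.141. Over all genes 1.49%, 2.19% and 1.45% agreed in the same order, with a median rho of 0.0942, 0.133 and 0.102. FASN, the fatty acid synthase, changed by -5.30 to 4.21 in liver (median 0.14) and by -5.55 to 3.88 in adipose (median -0.55), with a rho of 0.575 between them. THRSP, a regulator of lipogenesis, changed by -3.04 to 4.23 in liver and by -5.74 to 6.14 in adipose, with the highest rho of any gene in that pair, 0.622. SREBF1, the transcription factor above these enzymes, ran from -3.05 to 3.01 in liver (median 0.82) and from -2.83 to 3.02 in adipose (median 0.44), with a rho of 0.606. The acetyl-CoA carboxylase ACACA had a rho of 0.555, the acetyl-CoA synthetase ACSS2 0.503 and the desaturase SCD 0.495. SREBF1 also agreed between liver and muscle (rho 0.462), and SCD between muscle and adipose (rho 0.510), where its muscle level was low, with a median of 2.13 CPM at 0 years. The mean changes of these genes did not all pass or point one way. SREBF1 rose with the diet in liver, where 59 of 78 animals were higher (log2 fold change 0.60 ± 0.132 SE, edgeR quasi-likelihood adjusted p = 8.57e-05), and in adipose (0.34 ± 0.124 SE, adjusted p = 0.0276, but 0.28 ± 0.137 SE with an adjusted p of 0.114 without the animals in doubt), whereas FASN fell in adipose (-0.74 ± 0.215 SE, adjusted p = 0.00546) and ACSS2 fell in liver (-0.61 ± 0.087 SE, adjusted p = 8.52e-09). Across the 6 genes, r without the 2 animals farthest from the median was 0.451 to 0.653, rho in batch 2 was 0.467 to 0.612 and rho with cell type scores regressed out was 0.413 to 0.602. The same number, 6, agreed between liver and adipose with TMM scaling, in batch 2 alone, in the table of 588 libraries before quality control and without the animals in doubt.

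Heat shock chaperones agreed between liver and adipose and, in smaller number, in the other pairs. Of 16 members of the heat shock and cold response list, 1, 8 and 5 agreed between liver and muscle, liver and adipose, and muscle and adipose, with a median rho of 0.242, 0.348 and 0.239. Over all genes 2.19%, 1.49% and 1.45% agreed, with a median rho of 0.133, 0.0942 and 0.102. DNAJA1, an HSP40 co-chaperone, changed by -1.70 to 1.04 in liver (median -0.08), by -1.35 to 1.37 in muscle (median -0.04) and by -1.23 to 1.17 in adipose (median 0.04). DNAJA1 rho was 0.395 between liver and muscle, 0.617 between liver and adipose and 0.526 between muscle and adipose. HSPH1, an HSP110 chaperone, had a rho of 0.599 between liver and adipose and 0.442 between muscle and adipose, and lay just outside the threshold between liver and muscle (rho 0.349, adjusted p = 0.0663). The HSP90 genes HSP90AA1 and HSP90AB1, their activator AHSA1, the co-chaperones STIP1 and FKBP4 and the HSP40 gene DNAJB1 agreed between liver and adipose, with rho from 0.439 to 0.523. In batch 2 alone 0, 7 and 1 members agreed, and without animals 18395 and 12152 0, 8 and 2. The difference between tissue pairs was not tested for these lists.

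The remaining genes that agreed in all 3 pairs were CCDC117, CDK5RAP3 and ZBTB5. CCDC117 changed by -0.95 to 0.82 in liver, by -0.67 to 1.04 in muscle and by -0.93 to 0.88 in adipose (medians -0.0046, 0.01 and -0.17). Its rho was 0.479, 0.582 and 0.603, and 44 of 78 animals moved in 1 direction in all tissues. CDK5RAP3, a part of the enzyme complex that attaches the ubiquitin-like protein UFM1, changed by -0.72 to 1.53 in liver, by -0.73 to 0.82 in muscle and by -0.57 to 0.45 in adipose, and had rho of 0.376, 0.418 and 0.406. The SD of its adipose change, 0.208, lay at the 15.7th percentile of genes tested. ZBTB5, a zinc finger protein, changed by -1.21 to 0.99 in liver, by -1.01 to 1.47 in muscle and by -1.38 to 0.57 in adipose, with rho of 0.430, 0.374 and 0.445. Both genes lay close to the threshold, the smallest rho that passed being 0.370, and leaving out 1 animal kept CDK5RAP3 past it in all pairs in 47 of 78 omissions and ZBTB5 in 43. DNAJA1 stayed past it in 76 omissions, and the other 7 genes in all 78.

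Over the 30 results of the 10 genes, permutation p (two-sided, 100000 permutations, the smallest possible being 1e-05) ran from 1e-05 to 0.00085 for rho and up to 0.00539 for Pearson's r. Adjusted p ran from 1.18e-05 to 0.0469, and r from 0.323 to 0.639, or 0.315 to 0.606 without the 2 animals farthest from the median. Within batch 1 rho was 0.170 to 0.956 over 13 animals, and within batch 2 0.351 to 0.607. In each pair 48 to 58 of 78 animals moved in the same direction. All these values come from the animals and changes that chose the 10 genes. They describe the agreement and do not test it again. Changes in library depth had a rho of 0.167, 0.0528 and 0.175 between tissues, and rho between a gene's change and the depth change of the same tissue ran from -0.245 to 0.205.

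Markers of other cells were followed beside these results. Of 34 changes of a cell type score between tissues, 0 passed the adjusted threshold (permutation test) and 5 had an unadjusted p under 0.05. The red blood cell score between muscle and adipose was the closest (rho 0.348, adjusted p = 0.0704, 0.665 in batch 1 and 0.287 in batch 2), followed by red blood cells between liver and adipose (rho 0.292), macrophages between liver and adipose (rho 0.238) and between liver and muscle (rho 0.235), and T and NK cells between liver and muscle (rho 0.232). With 7 such scores regressed out of the changes, 44, 76 and 55 genes agreed, 3 of the 10 genes still agreed in all pairs (CCDC117, CPT1A and DDIT4), and the 30 rho values ran from 0.183 to 0.595.

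The diet calls of the 10 genes were all downward. Of 30 gene and tissue combinations 12 fell and 0 rose by the edgeR quasi-likelihood test, with 14 lower and 1 higher at an unadjusted p under 0.05. In liver 7 genes fell (24.7% of genes tested fell there), in muscle 1 (5.8%) and in adipose 4 (15%), while 21.6%, 4.07% and 16.2% of genes rose and 46.3%, 9.87% and 31.2% changed either way. This balance over all genes turned without the replicate block: in liver 2537 rose and 1833 fell (3221 and 3680 with it), and in muscle 326 rose and 49 fell (557 and 793 with it). With RLE size factors the same 12 fell. The main test used TMM scaling, which moved the median liver change of all genes by -0.0954 from that by library totals. By library totals CCDC117 and NR1D2 in liver had mean changes of -0.038 and -0.049, each with 38 animals higher and 40 lower. DDIT4, DNAJA1, PER1, PER3 and ZBTB5 were lower in liver in 46 to 51 animals. Without the 10 animals in doubt 12 fell and 0 rose, 11 of them shared, CCDC117 in liver being lost (adjusted p = 0.0551) and MT2A in muscle gained (log2 fold change -0.40 ± 0.118 SE, adjusted p = 0.0214). Without the replicate block of animals 9 of the 12 fell, the calls of DDIT4 in liver, PER1 in muscle and ZBTB5 in adipose being lost, and MT2A in muscle was called higher, where 1 library of animal 12152 reached 1862 CPM at 2 years. With all animals CPT1A and MT2A, which agreed in all pairs, passed the diet test in no tissue.

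**Figure D4:**
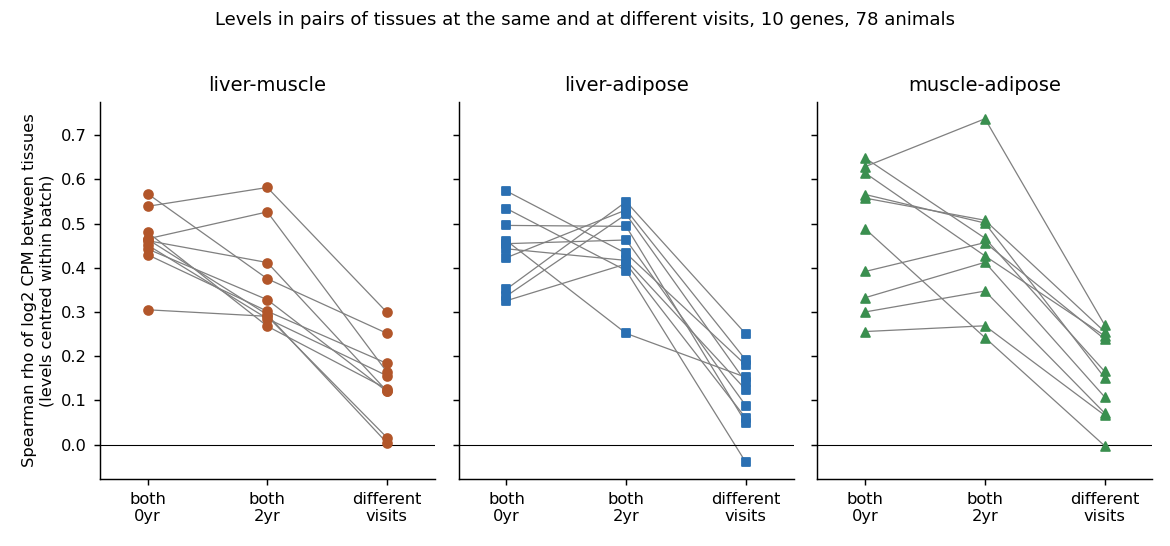
Spearman's rho of levels between tissues across 78 animals, for the 10 genes that agreed in all 3 pairs, at 0 years, at 2 years and between different visits, with levels centred within batch. Same-visit points lie above different-visit points for all 10 genes in each pair, and the medians are 0.463, 0.315 and 0.141 for liver and muscle.

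Levels were compared at the same and at different visits. Among the 10 genes the median rho of levels between liver and muscle was 0.463 at 0 years, 0.315 at 2 years and 0.141 when one tissue was taken at 0 and the other at 2 years. For liver and adipose these values were 0.449, 0.448 and 0.133, and for muscle and adipose 0.523, 0.442 and 0.159. PER3 in muscle and adipose had a rho of 0.629 at 0 years and 0.737 at 2 years, against 0.271 between visits. Over all genes the medians were 0.203, 0.232 and 0.143 for liver and muscle, 0.258, 0.246 and 0.191 for liver and adipose, and 0.177, 0.169 and 0.117 for muscle and adipose. These values are parts of the correlation of changes that chose the genes, so they describe it and test nothing.

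Some of the genes followed moved together across animals, whether or not they agreed between tissues. CLOCK and NPAS2, named below, agreed in no tissue pair. For 33 genes, the 10 above and those followed whatever their result, the change was standardised in each tissue and averaged over tissues, and 163 of 528 gene pairs were correlated past an adjusted permutation p of 0.05. PER3 moved with TEF (rho 0.821, r 0.859, 0.863 in batch 1 and 0.819 in batch 2), with DBP (rho 0.768) and with NR1D2 (rho 0.755), and opposite to ARNTL (rho -0.675). ARNTL and its alternative partner NPAS2 moved together (rho 0.780). PER1 moved with PER3 (rho 0.432), with the glucocorticoid gene FKBP5 (rho 0.648) and with DDIT4 (rho 0.420). CPT1A moved with CLOCK (rho 0.667) and PDK4 (rho 0.460), and opposite to DBP (rho -0.503). The chaperones DNAJA1 and HSPH1 had a rho of 0.885, and CCDC117 moved with both (rho 0.686 and 0.720). MT2A and PER3 had a rho of 0.0126 (adjusted p = 0.948), and PER3 and DNAJA1 one of -0.229 (adjusted p = 0.111). The other pairs named here had adjusted p from 1.23e-04 to 0.00128, and each kept its sign in both batches and without the 2 animals farthest from the median. They were picked after their values were seen.

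**Figure D5:**
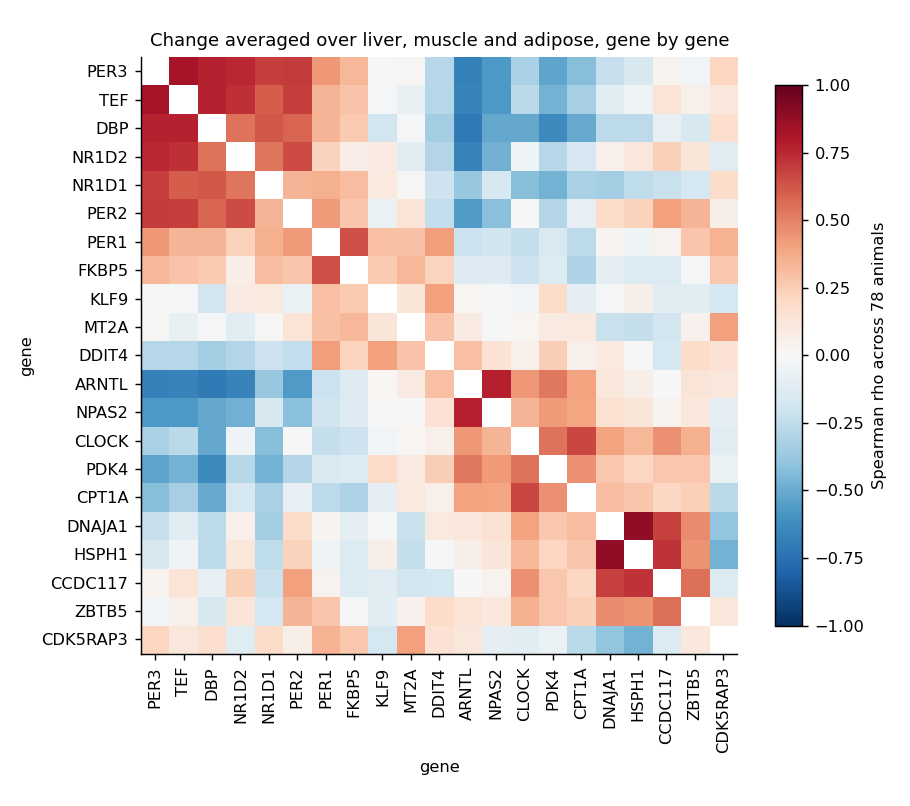
Spearman's rho between genes of the change averaged over 3 tissues, across 78 animals, as a heat map of genes against genes. PER3, TEF, DBP and NR1D2 form 1 positive block with ARNTL and NPAS2 opposite to it, and DNAJA1, HSPH1 and CCDC117 form another.

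Outside these systems, the genes with the highest rho in 1 pair alone had varied roles. Between liver and muscle they were PHIP (rho 0.543), PRPSAP2 (rho 0.540), CCNK, the cyclin partner of CDK12 (rho 0.509), LOXL3, a lysyl oxidase-like enzyme of the matrix (rho 0.4997), and ACIN1 (rho 0.495). With cell type scores regressed out, PHIP had a rho of 0.268 and PRPSAP2 one of 0.315. Between liver and adipose THRSP, FASN and ACACA were joined by ALDH2, an aldehyde dehydrogenase of mitochondria (rho 0.565), and HSD17B12, an enzyme of fatty acid elongation (rho 0.562). Between muscle and adipose NR1D1 and PDK4 were joined by CLK1, a kinase of splicing factors (rho 0.529), FDXACB1 (rho 0.514) and HERPUD2 (rho 0.496). PDK4 changed by -4.89 to 7.03 in muscle and by -2.60 to 2.91 in adipose, with medians of 0.02 and -0.05, and its rho was 0.544 in batch 2.

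The 5 genes that opposed did so with adipose in the pair. MPC1, a subunit of the mitochondrial pyruvate carrier, changed by -2.52 to 1.42 in liver and by -1.91 to 2.08 in adipose, with a rho of -0.535 between them (adjusted p = 0.000511, -0.615 in batch 1 and -0.508 in batch 2). In 28 of 78 animals MPC1 moved in the same direction in both. ANG, the ribonuclease angiogenin, had a rho of -0.414 and DHRS7B, an enzyme of ether lipid synthesis, one of -0.398 in the same pair. These values concern changes and not levels. Levels of DHRS7B in liver and adipose had a rho of 0.539 at 0 years and 0.526 at 2 years. Those of MPC1 had -0.497 and -0.371, and those of ANG -0.232 and -0.213. ENO3, the muscle enolase, had a rho of -0.450 and TRAPPC12, a protein of vesicle trafficking, one of -0.373 between muscle and adipose. ENO3 is a muscle gene whose adipose level had a median of 4.19 CPM and a highest value of 1332 CPM at 0 years, and its rho was -0.378 without the animals in doubt and -0.186 with cell type scores regressed out.

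In the lists of other processes counts of genes that agreed are to be read against the 2.19%, 1.49% and 1.45% of all genes that agreed in the 3 pairs, and 0 or 1 gene of 25 or fewer is near that share. None of the 25 oxidative phosphorylation genes, 20 extracellular matrix genes, 14 hypoxia genes or 5 cell cycle genes tested agreed in a pair, with 0 to 5 of each list above 0 at an unadjusted p under 0.05. Of 20 interferon-stimulated genes 1 agreed between liver and muscle (TRIM22, rho 0.418), and of 22 immediate early genes 1 (CCN1, rho 0.376). FOS and EGR1, which answer within minutes to stimuli, had rho from -0.207 to 0.0344 although their changes ran as far as 8.22 log2 units. Of 14 cholesterol synthesis genes 1 agreed, the regulator SREBF2 between liver and adipose (rho 0.380), while HMGCS1, the synthase of the pathway, had rho from -0.0487 to 0.0817 and fell in liver (log2 fold change -0.58 ± 0.091 SE, edgeR quasi-likelihood adjusted p = 1.46e-07). In the amino acid response list 11 genes were tested and 2, 2 and 1 agreed in the 3 pairs. Their median rho was 0.268, 0.228 and 0.0740, beside 0.133, 0.0942 and 0.102 over all genes. DDIT4 agreed in each pair, and SLC3A2, a chain of amino acid transporters, between liver and muscle (rho 0.427) and liver and adipose (rho 0.418). In antigen presentation the proteasome subunit PSMB8 agreed between liver and muscle (rho 0.382) and the factor IRF1 between liver and adipose (rho 0.414).

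Another 13 animals, not used above because liver was incomplete, had both visits in muscle and adipose. Across them PER3 had a rho of 0.687 (permutation p = 0.0123), PER1 0.692 (permutation p = 0.0111), CPT1A 0.566 (permutation p = 0.0472), PDK4 0.725 (permutation p = 0.00635) and DBP 0.593 (permutation p = 0.0366). NR1D2 and MT2A had rho of -0.176 and -0.170. The rest of the 10 genes were CCDC117 (rho 0.0275), CDK5RAP3 (0.0330), DNAJA1 (0.0549), ZBTB5 (0.0769) and DDIT4 (0.341). Pearson's r was 0.719 for PER3, 0.613 for PER1, 0.391 for CPT1A and 0.663 for PDK4, and without the 2 farthest animals 0.858, 0.577, 0.797 and 0.784. None of the 7797 genes passed in these animals (lowest adjusted p 0.215, with 215 genes above 0 and 201 below 0 at an unadjusted p under 0.05), and PER3, PER1 and PDK4 each had an adjusted p of 0.796. Of the 10 genes 8 had a rho above 0, with a median of 0.0659, and of the 113 genes that had agreed in this pair 75 (66.4%), with a median of 0.110. Over all genes 48.1% lay above 0, with a median of -0.0165. In the 10 of these animals in batch 2, rho was 0.539 for PER3, 0.721 for PER1 and 0.491 for CPT1A, whereas NR1D2 had -0.467, MT2A -0.285, DNAJA1 -0.2 and CCDC117 -0.139.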

How the data were processed

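The deposited values were whole-number counts of reads by gene, without normalization, for 588 libraries before and 570 after quality control. FastQC, STAR 2.7.7a and featureCounts are named per the submitters' processing notes. No settings, annotation, build or strand were given in the sources used here. Genes that overlap are uncertain: PER3 with UTS2, ZBTB5 with GRHPR, ANG with RNASE4, LOXL3 with HTRA2, DNAJB1 with TECR and ACACA with AATF, while PER1, PER2, ARNTL, TEF, FKBP5 and SCD overlap genes without a symbol. Of 34178 symbols 33824 matched RefSeq Panubis1.0, used for names and overlaps. There were 0 columns of no sample and 0 identical libraries.

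Log2 CPM used library totals and a prior count of 2. Spearman correlations and adjusted p-values came from scipy 1.17.1, numpy 2.4.6 and pandas 2.3.3 under Python 3.11.15. The diet test was edgeR 4.0.16 quasi-likelihood (limma 3.58.1, R 4.3.3) with TMM scaling, filterByExpr at a minimum count of 10, the common dispersion from 1000 genes and the animal as a block. DESeq2 1.42.0 served as an alternative. Labels give the same animal at both visits, and the median correlation of an animal's own visits was 0.512 in liver, 0.587 in muscle and 0.572 in adipose, against -0.0159, 0.0131 and -0.0153 between animals. P-values measure the spread between animals.

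On simulated data with 1500 genes, 34.0% of tissue pairs with a true correlation of 0.3 were called, 87.3% at 0.5 and 100% at 0.7, and 3.41% of calls were false. The simulated data held 50 genes at each of the true correlations 0.3, 0.5, 0.7 and 0.9. The rho needed to pass depends on the share of correlated genes, so these percentages need not hold for the real genes. The members and lists were chosen with earlier results of these data known. Named genes were up to 24 that agreed in all pairs, the 5 highest in each pair alone, the 3 lowest that opposed, members at both ends of lists with at least 2 genes that agreed in all pairs, and a fixed set of 34, of which 27 were tested. List members that agreed in a pair were named after their values were seen. Alternatives were other scalings, filters, prior counts, Pearson's correlation, batches, cell type scores, the larger table and fewer animals.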

Additional observations from a re-analysis of the deposited data

Results flagged for a closer look

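For 6 of the 10 genes that agreed in all tissue pairs, the mean change itself differed between tissues past an adjusted p of 0.05. Each animal's change in one tissue was set against its change in the other across 78 animals, with a two-sided permutation of signs and adjustment over 30 differences, on the log2 CPM scale by library totals. CCDC117 changed less far downward in liver than in adipose by 0.14 ± 0.035 SE (adjusted p = 5e-04, higher in 54 of 78 animals), and it was higher in muscle than in adipose by 0.21 ± 0.036 SE (adjusted p = 3e-04, 59 of 78). PER3 was higher in muscle than in adipose by 0.15 ± 0.058 SE (adjusted p = 0.0331, 53 of 78). The largest of these differences was that of CPT1A, liver minus muscle, at -0.58 ± 0.190 SE (adjusted p = 0.0108), with a mean change of -0.29 in liver and 0.30 in muscle, liver being higher in 26 of 78 animals.

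NR1D2 was higher in muscle than in adipose by 0.21 ± 0.059 SE (adjusted p = 0.0026, 50 of 78). CDK5RAP3 was higher in liver than in adipose by 0.15 ± 0.040 SE (adjusted p = 0.0015, 51 of 78) and in muscle than in adipose by 0.16 ± 0.034 SE (adjusted p = 3e-04, 54 of 78). ZBTB5 had a liver minus muscle difference of -0.18 ± 0.060 SE (adjusted p = 0.0108, liver higher in 27 of 78) and was higher in muscle than in adipose by 0.19 ± 0.054 SE (adjusted p = 0.0026, 55 of 78). With TMM scaling the median change of all genes shifts by -0.0954 in liver, -0.0570 in muscle and 0.0102 in adipose, and 5 of these 9 differences still passed. The liver minus adipose differences were then 0.04 for CCDC117 (adjusted p = 0.368) and 0.05 for CDK5RAP3 (adjusted p = 0.226), and the muscle minus adipose differences 0.09 for PER3 (adjusted p = 0.226) and 0.14 for NR1D2 (adjusted p = 0.0594). Another 6 differences passed with TMM scaling alone. The test with TMM scaling was added after the data were seen.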

How the results depend on the processing

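All 10 genes kept a rho above 0 in every pair under every alternative run, but the counts moved. Each alternative drew on animals that chose these genes, so a rho above 0 there is no separate test. In the 13 animals outside the rule, 8 of the 10 had a rho above 0 between muscle and adipose. RLE size factors left 108 genes agreed between liver and muscle. With no filter on low values the counts were 69 between liver and muscle and 70 between muscle and adipose, with 6 in all pairs. Pearson's correlation gave 962, 274 and 256 between liver and muscle, liver and adipose, and muscle and adipose, with 20 in all pairs. In batch 2 alone 5 genes agreed in all pairs. In batch 1 alone, with 13 animals, the counts were 0, 0 and 1, with 0 in all pairs (346, 431 and 248 above 0 at an unadjusted p under 0.05, and 12 in all pairs). With cell type scores regressed out they were 44, 76 and 55, with 3 in all pairs, and in the table of 588 libraries (93 animals) 73, 35 and 58, with 3. Without animal 18395 the liver and muscle count was 106, and without 18395 and 12152 it was 85, with 6 in all pairs. Leaving out each animal in turn gave 106 to 226, 94 to 134 and 79 to 133, with 7 to 11 in all pairs. The cause of these shifts was not tested. TMM scaling left 8 of the 10 genes in all pairs, without CDK5RAP3 and NR1D2. RLE size factors left 7, without CCDC117, CDK5RAP3 and NR1D2. Batch 2 alone kept CCDC117, DDIT4, MT2A, NR1D2 and PER3, and the table of 588 libraries kept CCDC117, CPT1A and PER3.

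For the diet, the replicate block of animals gave 6901, 1350 and 5242 called genes in liver, muscle and adipose. With no replicate block edgeR called 4370, 375 and 2557, and the DESeq2 Wald test with no replicate block 4580, 331 and 2713. Without the 10 animals in doubt, a choice made after the data were seen, edgeR called 6528, 1197 and 4862 with the block.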

Other observations

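Genes of RNA splicing were also followed. Of 20 tested splicing factors, their kinases and cyclins L, 0 agreed between liver and muscle, 2 between liver and adipose and 1 between muscle and adipose, and 15, 3 and 5 lay above 0 at an unadjusted p under 0.05. The median rho of the list was 0.262, 0.0841 and 0.157, beside 0.133, 0.0942 and 0.102 over all genes. Between liver and muscle it was 0.158 with TMM scaling (0.1003 over all genes) and 0.0642 with cell type scores regressed out (0.0872 over all genes), the latter below the median of all genes. HNRNPDL, an RNA-binding protein, had a rho of 0.430 between liver and adipose, and CLK1 passed between muscle and adipose. With cell type scores regressed out the rho of HNRNPDL was 0.262.

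Single members of further lists agreed in 1 pair. Of 30 cytosolic ribosomal proteins RPS9 agreed between liver and muscle (rho 0.436), and 24, 20 and 30 of them had a rho above 0 in the 3 pairs, where 84.4%, 76.2% and 77.97% of all genes did. Between liver and muscle the median rho of these proteins was 0.333 in batch 2 and -0.258 in the 13 animals of batch 1. The endoplasmic reticulum chaperone CANX agreed between liver and adipose (rho 0.447), as did TKT, the transketolase of the pentose phosphate pathway (rho 0.444, 0.484 with cell type scores regressed out). TKT changed by -1.20 to 0.88 in liver and by -2.30 to 1.77 in adipose. GSTM4, a glutathione transferase, agreed between liver and muscle (rho 0.3697), at the edge of the threshold. Among 10 antigen presentation genes the median rho was 0.304 between liver and muscle, with 8 of 10 above 0 at an unadjusted p under 0.05, and macrophage and T and NK cell scores had rho of 0.235 and 0.232 in that pair. With cell type scores regressed out the median was 0.294, and 2 of the 10 genes agreed there where 1 had done so.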
